A study of Mus musculus with 12 samples.

Results

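Messenger RNA of 10 cyclic nucleotide phosphodiesterases other than Pde10a was followed in mouse hearts. The 10 genes were a list of symbols, Pde1a, Pde1c, Pde2a, Pde3a, Pde3b, Pde4a, Pde4b, Pde4d, Pde5a and Pde8a, looked up among the 55453 symbols counted in every library. All 10 were found, and all 10 were among the 14757 genes with enough counts to be tested. The list was set by gene symbol, with earlier results of these data known. It leaves out 10 other catalytic phosphodiesterases that are described after it. The question was how the level of each one stood across genotype and doxorubicin, and whether any was higher in hearts labelled as lacking PDE10A.

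Phosphodiesterases end cyclic nucleotide signals by hydrolysing cAMP, cGMP or both to the inactive monophosphates. In heart muscle cells, cAMP made by adenylyl cyclases activates protein kinase A, which raises the rate and force of contraction, and cGMP activates protein kinase G. Families differ in substrate and control: PDE4 and PDE8 hydrolyse cAMP, PDE5 hydrolyses cGMP, and PDE1, PDE2, PDE3 and PDE10 hydrolyse both. PDE3 is inhibited by cGMP, PDE2 is stimulated by it, and PDE1 is stimulated by calcium and calmodulin.

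The series sequenced heart RNA from C57BL/6J mice in 4 groups of 3 libraries. These were wild-type (WT) mice given vehicle (numbered 1, 2 and 3 in the titles), WT mice given doxorubicin, or DOX (21, 22 and 24), PDE10A knockout (KO) mice given vehicle (veh_3393, veh_3394 and veh_3395) and KO mice given DOX (18, 19 and 20). DOX is an anthracycline against cancer that injures the heart; it was injected into the peritoneum as 1 dose of 15 mg/kg and followed for 7 days. The protocol also describes an inhibitor of PDE10A, TP-10, with its own vehicle, and mice of either sex; no library used here is labelled with TP-10 or with a sex. How the allele was made, in which cells it acts, and whether KO vehicle mice, with their higher numbers, were bred or handled apart were not given in the sources used here. The labels do not state that each library is 1 animal, so p-values measure the spread between libraries.

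Libraries held 23846398 to 32921876 counts. Pde10a itself was at 3.38, 1.00 and 1.86 CPM (counts scaled to library size) in WT vehicle libraries and at 2.7, 2.08 and 1.79 in WT DOX libraries. It was at 9.31, 11.9 and 9.13 CPM in the libraries labelled KO vehicle and at 8.27, 8.49 and 9.09 in those labelled KO DOX. Counts summed over the whole gene were thus higher in every library labelled KO than in every WT library, which goes against what the label says of the gene. Such counts do not show whether the deleted part is transcribed, and the label KO is used below only as the libraries' label. Of the libraries, WT vehicle mouse 2 stood apart on the first principal component (-57.4) and had 19.5% of its counts in mitochondrially encoded genes, against 24.4% to 33.6% in the others. WT DOX mouse 21 was nearer to KO DOX mouse 20 (chi-square per gene 17.5) than to WT DOX mice 22 and 24 (70.7 and 73.6). Summed atrial markers were at 2140 CPM in KO vehicle mouse veh_3394 and 1590 CPM in KO DOX mouse 18, and at 61.8 to 259 CPM in the other 10. Summed cardiomyocyte markers were at 39200 to 49800 CPM in all 12 libraries, and endothelial markers at 753 to 934 CPM in WT vehicle, 532 to 647 in WT DOX, 551 to 608 in KO vehicle and 566 to 722 in KO DOX. In bulk tissue, fewer cells of a type and less RNA per cell cannot be told apart.

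The members spanned a wide range of levels. Levels were scaled per kilobase of annotated exon, so that genes can be compared. Pde4a was the highest member in WT vehicle hearts at 9.83 ± 0.525 CPM per kb (SD, n = 3), followed by Pde3a at 6.76 ± 0.853 and Pde8a at 4.38 ± 1.27. Those genes took 35.4%, 24.2% and 15.5% of the summed level of the 10. Pde4b (2.34 CPM per kb) and Pde1c (2.02) came next with overlapping libraries, then Pde1a (0.911) and Pde4d (0.731), also overlapping, then Pde3b (0.440) and Pde5a (0.429), again overlapping. Pde2a was last at 0.0365 CPM per kb. Each other neighbour in this order was separated in all 3 WT vehicle libraries. Pde4a was also the highest member in both KO groups, while in WT DOX hearts Pde3a (8.54 ± 2.72 CPM per kb) and Pde4a (7.58 ± 1.98) overlapped.

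**Figure D1:**
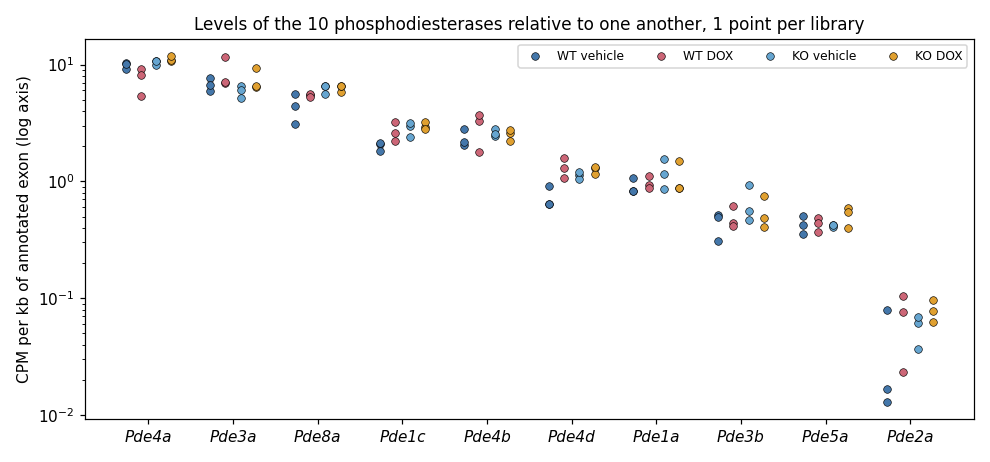
Level of each of the 10 phosphodiesterases in CPM per kilobase of annotated exon, on a log axis, by group; points are libraries. Pde4a, Pde3a and Pde8a lie at the top in every group and Pde2a lies lowest in every group.

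Family sums cover members alone, so Pde4c and Pde1b are left out. Among these families the PDE4 members were the largest per kilobase in each group. They summed to 12.9 ± 0.26 CPM per kb in WT vehicle, 11.8 ± 2.9 in WT DOX, 14.2 ± 0.34 in KO vehicle and 14.9 ± 0.87 in KO DOX (SD, n = 3 each). All 10 members together summed to 27.9, 30.5, 31.6 and 33.9 CPM per kb in the same order. The PDE3 genes summed to 7.2, 9.03, 6.59 and 7.99 CPM per kb in the same order, and the PDE1 genes to 2.93, 3.66, 4.04 and 4.07. The exon length matters to these shares. With the longest annotated transcript in its place, Pde4a remained first in WT vehicle hearts at 37.8% and Pde3a second at 16.3%, while Pde4b (13.6%) came before Pde8a (10.8%).

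Within the PDE4 family, Pde4d (GRCm38 chr13:108449948-109953461, plus strand) encodes a cAMP-specific enzyme known to sit with the ryanodine receptor and with beta-adrenergic receptors. It was at 10.9, 7.74 and 7.74 CPM in WT vehicle mice 1, 2 and 3 and at 12.8, 18.9 and 15.7 CPM in WT DOX mice 21, 22 and 24. In KO vehicle mice veh_3393, veh_3394 and veh_3395 it was at 13.6, 12.7 and 14.5 CPM, and in KO DOX mice 18, 19 and 20 at 15.6, 14 and 16 CPM. The WT vehicle libraries were the 3 lowest of the 12, with no overlap with any other group, and the other groups overlapped one another.

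Pde4a (chr9:21165714-21213248, plus strand) encodes another cAMP-specific enzyme of the family. It was at 78.3, 70.7 and 76.7 CPM in WT vehicle, 70.5, 62.4 and 41.1 in WT DOX, 82.2, 76.5 and 82.3 in KO vehicle and 82.0, 83.2 and 90.4 in KO DOX libraries. The WT DOX libraries were the 3 lowest of the 12, led by mouse 24, whose 41.1 CPM stood well under the other 11. Pde4b (chr4:102087543-102607259, plus strand), a PDE4 enzyme linked to the cardiac L-type calcium channel, was at 21.6, 29.5 and 23.1 CPM in WT vehicle, 35.0, 38.8 and 19 in WT DOX, 26.1, 29.4 and 26.6 in KO vehicle and 27.4, 23.3 and 29.1 in KO DOX. WT DOX thus held both the 2 highest libraries for Pde4b and the lowest.

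Pde8a (chr7:81213596-81334533, plus strand) encodes a cAMP-specific enzyme with high affinity for cAMP that is not blocked by the general inhibitor IBMX. It was at 22.8, 12.5 and 17.8 CPM in WT vehicle, 22.1, 22.8 and 21.2 in WT DOX, 26.4, 26.8 and 22.7 in KO vehicle and 23.4, 26.7 and 26.8 in KO DOX. WT vehicle mice 2 and 3 were the lowest of the 12, and mouse 2 was also the library with the lowest Pde10a. Across the 12 libraries Pde8a had a Pearson r of 0.82 with Pde10a in log2 CPM and of 0.72 with Pde4d; these values describe libraries that differ by group.

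Promoter windows are shown for Pde4d, Pde8a and Pde4a, since an element bound by the cAMP-responsive factor CREB is a known link between cAMP and transcription. The windows run from 250 bases before to 50 bases after a RefSeq transcript start on GRCm38.p6. They are printed 5′ to 3′ on the gene's strand, with capitals for the 5-letter core of the cAMP response element, TGACG, or its reverse complement, CGTCA. The window of Pde4d, at chr13:108653927-108654226 (plus strand), holds neither and lies inside the gene's annotated span. The Pde8a window is at chr7:81213015-81213314 (plus strand) and the Pde4a window shown is at chr9:21183851-21184150 (plus strand), 1 of 3 for that gene. The Pde4a window shown also lies inside its gene's annotated span, and the other windows of Pde4a hold no core. The Pde8a window lies wholly before the annotated span given above for that gene.
Pde4d: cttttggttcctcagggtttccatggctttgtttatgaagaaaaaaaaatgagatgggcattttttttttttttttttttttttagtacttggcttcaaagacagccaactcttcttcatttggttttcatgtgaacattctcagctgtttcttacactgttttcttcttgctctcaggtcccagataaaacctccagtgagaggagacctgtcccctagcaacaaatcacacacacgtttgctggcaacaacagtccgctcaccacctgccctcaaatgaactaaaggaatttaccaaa
Pde8a: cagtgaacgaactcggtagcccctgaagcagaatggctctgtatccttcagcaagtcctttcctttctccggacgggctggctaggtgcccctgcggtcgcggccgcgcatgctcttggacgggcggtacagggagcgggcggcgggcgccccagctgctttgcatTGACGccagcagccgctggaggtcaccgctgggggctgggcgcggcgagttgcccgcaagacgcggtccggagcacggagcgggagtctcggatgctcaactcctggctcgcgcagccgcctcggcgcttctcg
Pde4a: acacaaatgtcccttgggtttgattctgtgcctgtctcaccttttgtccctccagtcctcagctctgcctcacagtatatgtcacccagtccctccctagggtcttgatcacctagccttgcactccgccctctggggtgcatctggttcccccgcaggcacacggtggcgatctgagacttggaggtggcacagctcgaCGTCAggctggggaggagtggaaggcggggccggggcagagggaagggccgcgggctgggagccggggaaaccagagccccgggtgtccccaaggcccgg
In the Pde8a window the core begins 84 bases before the RefSeq start, and in the Pde4a window it begins 50 bases before the RefSeq start. Windows were matched for 8 of the 10 members (not Pde3a and Pde3b), 22 in all. Of these, 5 held the core on either strand, 1 each in Pde1a, Pde2a, Pde4a, Pde4b and Pde8a, and 0 held the full element TGACGTCA, which contains the core on both strands. Of all 32851 promoter windows, 20.8% held the core and 1.79% the full element. A match is a run of letters and not evidence of binding.

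Of the PDE3 genes, Pde3a (chr6:141249269-141507448, plus strand) encodes the cGMP-inhibited enzyme that is the target of milrinone in the heart. It was at 97.5, 75.9 and 84.9 CPM in WT vehicle, 87.8, 149 and 89.6 in WT DOX, 82.9, 66.5 and 77.6 in KO vehicle and 82.1, 118 and 83.8 in KO DOX. The WT DOX libraries all lay above the KO vehicle libraries, a pair of groups that differ in both genotype and treatment, and every other pair of groups overlapped. WT DOX mouse 22 and KO DOX mouse 19 stood above the rest. Pde3b (chr7:114415281-114539251, plus strand), best known from adipocytes and from insulin action, was at 4.67, 2.83 and 4.52 CPM in WT vehicle, 4.03, 5.64 and 3.77 in WT DOX, 5.06, 8.41 and 4.27 in KO vehicle and 6.89, 3.73 and 4.43 in KO DOX. The highest libraries, KO DOX mouse 18 and KO vehicle mouse veh_3394, were the same that held high atrial markers.

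Of the PDE1 genes, Pde1c (chr6:56069804-56569103, minus strand) encodes the calcium- and calmodulin-stimulated enzyme known from heart muscle cells. It was at 42.0, 43.1 and 36.6 CPM in WT vehicle, 52.3, 44.7 and 64.5 in WT DOX, 60.2, 48.1 and 63.5 in KO vehicle and 58.8, 64.4 and 56.5 in KO DOX. As with Pde4d, the WT vehicle libraries were the 3 lowest of the 12. Pde1a (chr2:79834453-80129458, minus strand), a PDE1 enzyme with a preference for cGMP, was at 6.46, 4.97 and 5.00 CPM in WT vehicle, 5.64, 6.66 and 5.33 in WT DOX, 5.13, 9.28 and 6.96 in KO vehicle and 9.06, 5.27 and 5.32 in KO DOX. Its 2 highest libraries were again KO DOX mouse 18 and KO vehicle mouse veh_3394.

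Pde5a (chr3:122728947-122859374, plus strand), the cGMP-specific target of sildenafil, was the steadiest member, with 1.70 times between its lowest and highest library. It was at 4.19, 3.45 and 5.00 CPM in WT vehicle, 4.82, 4.3 and 3.6 in WT DOX, 4.18, 4.04 and 4.18 in KO vehicle and 5.87, 5.38 and 3.89 in KO DOX, with all groups overlapping. Pde2a (chr7:101421691-101512827, plus strand), the cGMP-stimulated enzyme, had only 2 to 18 counts a library, or 0.0794 to 0.647 CPM. Of its 6149 annotated exon bases, 3955 (64.3%) are also exons of Gm45837 on the same strand, and how reads shared by 2 genes were counted is not given in the sources used here. Its level and its fold changes are therefore uncertain.

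**Figure D2:**
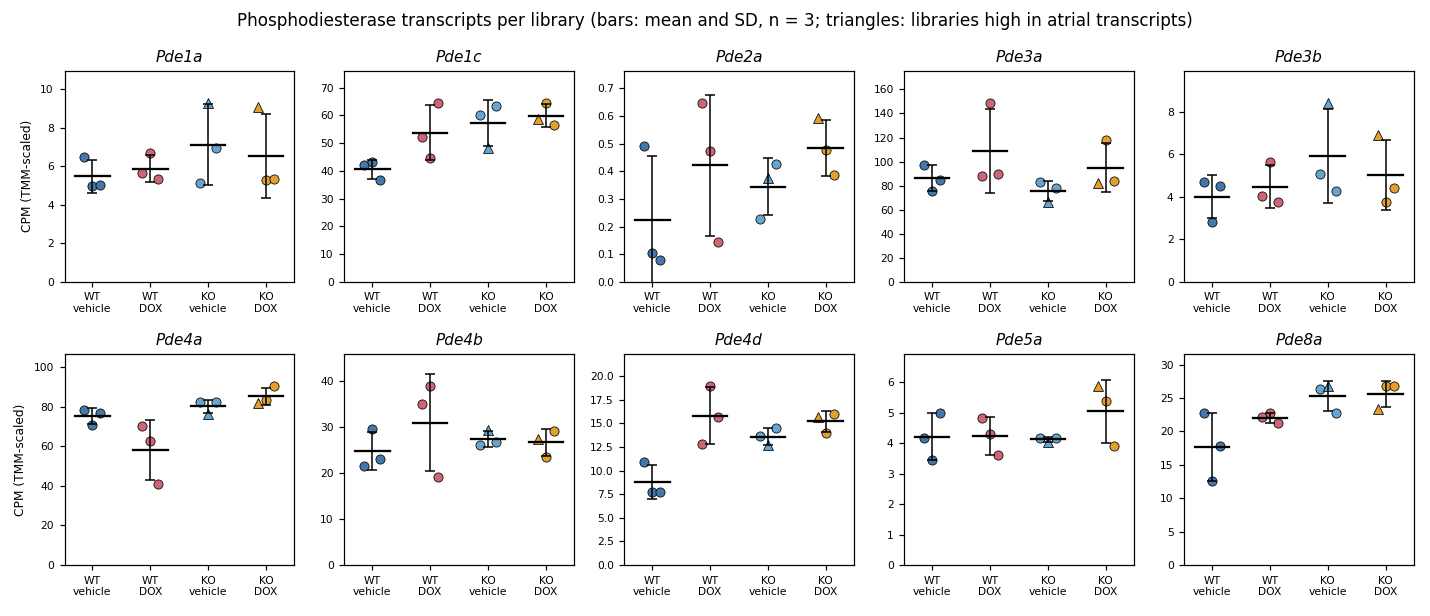
CPM of each of the 10 phosphodiesterases in every library, by group, with axes from 0; bars are the mean and SD of 3 libraries, and triangles mark KO DOX mouse 18 and KO vehicle mouse veh_3394, the libraries high in atrial transcripts. For Pde4d and Pde1c the WT vehicle libraries are the lowest 3, for Pde4a the WT DOX libraries are, and for Pde1a and Pde3b the triangles are highest.

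DOX in WT hearts raised 1 of the 10 members, Pde4d, and lowered 0. Pde4d was 0.85 higher on the log2 scale (SE 0.163, 95% interval 0.50 to 1.21), from 8.78 ± 1.81 to 15.8 ± 3.05 CPM (SD, n = 3 each), with an adjusted p of 0.0134 by edgeR's quasi-likelihood test. Among all 14757 genes tested, 18.6% passed in this comparison, 9.39% upward and 9.2% downward, so 1 of 10 is near the background. Without TMM scaling of the libraries, 1845 genes were higher and 941 lower, against 1386 and 1357 with it, and Pde4d rose under either scaling. The call of Pde4d was lost without WT DOX mouse 22 or 24: without mouse 22 it was 0.71 (adjusted p 0.0572) and without mouse 24 it was 0.86 (adjusted p 0.0517). It was 0.85 with an adjusted p of 0.0841 when only the WT groups entered the fit.

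Pde1c was higher after DOX in WT hearts without overlap, by 0.41 (SE 0.141, interval 0.10 to 0.71), but missed the threshold (adjusted p 0.0612). Pde4a was lower without overlap, by -0.38 (SE 0.154, interval -0.71 to -0.04, adjusted p 0.102). Of the members, 2 were thus higher and 1 lower with no shared range, where 16.8% of all genes were higher and 15.8% lower in that way. Pde4a passed only when WT DOX mouse 21 was left out of the comparisons that leave out 1 library (-0.54, adjusted p 0.0229), and Pde1c did in none of them. The fit without mouse 21 called 3851 of 15033 genes. The other 7 members had log2 differences from 0.01 (Pde5a) to 0.93 (Pde2a) with adjusted p from 0.191 to 0.982. The median over the 10 was 0.32, against 0 over all genes. Without WT vehicle mouse 1, 2 of the 7 were called as well, Pde8a at 0.54 (adjusted p 0.0196) and Pde2a at 2.11 (0.0438). That fit called 4188 of 15091 genes, against 2743 of 14757 with all libraries. Pde1c was called by DESeq2 (adjusted p 0.0418) and limma-voom (0.0152), and limma-voom also called Pde4a (0.0122) and Pde2a (0.0338). Over all genes, DESeq2 called 3457 of 14734 and limma-voom 5575 of 14757.

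Markers of blood cells and of endothelial cells moved in the same comparison. All 4 neutrophil markers were called higher after DOX in WT, with a summed level of 1.2 to 2.18 CPM in WT vehicle and 6.43 to 32.5 CPM in WT DOX. All 3 erythroid markers were called lower, from 38.8 to 135 CPM summed in WT vehicle to 0.144 to 0.395 CPM in WT DOX. Cxcr2 had 0 counts in WT vehicle mouse 2, and Hbb-bs had 0 counts in WT DOX mice 22 and 24. Of 6 endothelial markers, 4 were called lower, where 9.2% of all genes were. Over the 12 libraries, Pearson r with the summed neutrophil and erythroid markers was 0.67 and -0.56 for Pde4d and -0.66 and 0.58 for Pde4a, in log2 CPM. With the endothelial and cardiomyocyte markers it was -0.68 and -0.63 for Pde4d, 0.37 and 0.39 for Pde4a and -0.66 and -0.05 for Pde1c. These are descriptions over libraries that differ by group, and the part of these cell types in the members' values was not tested.

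DOX in KO hearts called 0 of the 10 members in edgeR's test, where it called 0.0136% of all genes. None had an unadjusted p under 0.05, and 0 were called by DESeq2 or limma-voom. Pde4d differed by 0.16 (interval -0.19 to 0.51), Pde1c by 0.07 and Pde4a by 0.09, and every member had an adjusted p of 0.997. The 95% interval lay between -1 and 1 on the log2 scale for 9 of the 10, all but Pde2a. The groups overlapped for each member, where 16.3% of all genes did not overlap.

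The difference between the DOX effects, that in KO less that in WT, was tested as an interaction. It was called for 0 of the 10 members by edgeR and for 0.21% of all genes. Pde4d had the smallest p of the members, at -0.69 (SE 0.228, interval -1.19 to -0.19, p 0.0103, adjusted p 0.218), followed by Pde4a at 0.46 (SE 0.217, adjusted p 0.320). Pde4d was the 1 member with an unadjusted p under 0.05. limma-voom called 2, Pde4a and Pde4d, while DESeq2 called 0. Over all genes they called 2048 and 373. The rise of Pde4d in WT and its smaller difference in KO are thus not shown to differ by the edgeR test.

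**Figure D3:**
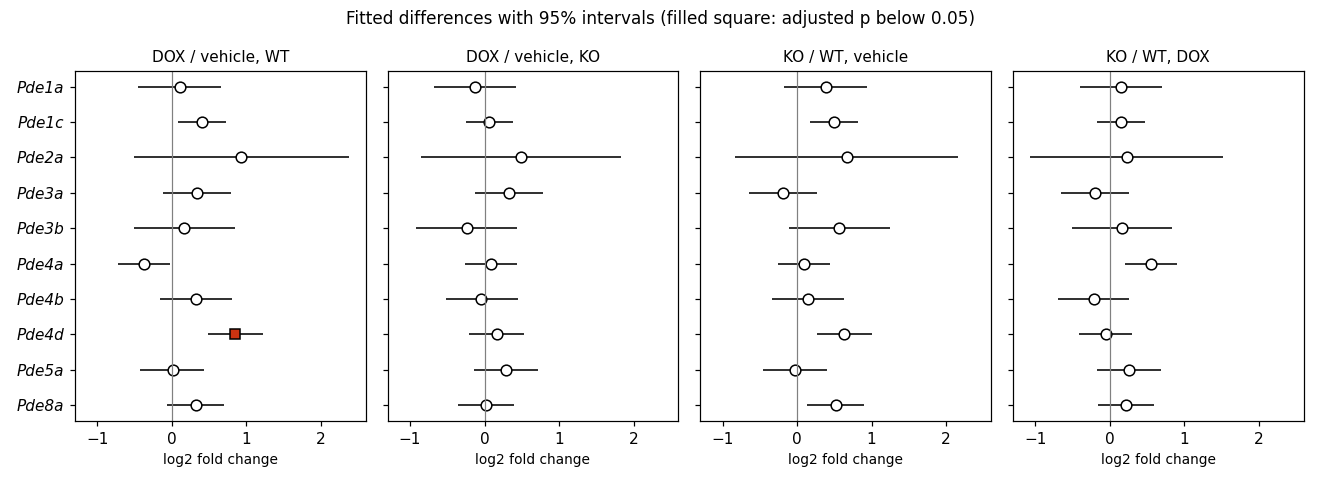
Log2 difference of each of the 10 phosphodiesterases with its 95% interval, for DOX in WT, DOX in KO, KO under vehicle and KO under DOX. Pde4d after DOX in WT is the 1 difference that passed the adjusted threshold; Pde2a has the widest intervals.

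KO against WT under vehicle called 0 of the 10 members by edgeR's test, where it called 2.88% of all genes, 1.79% upward. The members nearest to the threshold were all higher in KO: Pde4d by 0.63 (SE 0.164, interval 0.28 to 0.99, adjusted p 0.0547), Pde1c by 0.50 (SE 0.141, interval 0.19 to 0.80, adjusted p 0.0655) and Pde8a by 0.52 (SE 0.169, interval 0.15 to 0.89, adjusted p 0.0883). Their unadjusted p were 0.0021, 0.00406 and 0.00946. Pde4d and Pde1c had no overlap between the groups, where 16.5% of all genes were higher in KO without overlap, and Pde8a overlapped through KO mouse veh_3395 and WT mouse 1. DESeq2 did call these genes, with adjusted p of 0.0112, 0.0213 and 0.0448, and limma-voom called 4 members, Pde2a besides them. Those tools also called more of all genes, 1682 and 5186 against edgeR's 425.

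Single libraries moved these values across the threshold. Without WT vehicle mouse 1, which was nearest to the KO libraries for Pde4d and Pde8a, Pde4d was 0.81 higher in KO (adjusted p 0.00869), Pde8a 0.74 (0.00924) and Pde1c 0.52 (0.0470). That fit also called far more of all genes, 2670 of 15091, against 425 of 14757 with all libraries. Without WT DOX mouse 21, which enters this comparison only through the shared spread, Pde4d was 0.64 higher (adjusted p 0.0381), in a fit that called 734 of 15033 genes. No member was called with any other single library left out. None was called without the libraries high in atrial transcripts either. Without WT vehicle mouse 2 Pde8a was 0.32 higher (adjusted p 0.226). Of the other members, 5 were higher and 2 lower in KO in the fitted value, from -0.19 for Pde3a to 0.66 for Pde2a, with adjusted p from 0.259 to 0.948. Intervals lay within -1 and 1 for 8 of the 10, all but Pde2a and Pde3b. The WT vehicle libraries enter both this comparison and DOX in WT, so high values in both for Pde4d and Pde1c are not separate measurements. Endothelial markers were higher in every WT vehicle library than in every other library. All 4 neutrophil markers were higher in KO under vehicle in the fitted value, and 1 was called. They summed to 1.2 to 2.18 CPM in WT vehicle and 4.61 to 8.06 CPM in KO vehicle. The part of these cell types in the members' differences was not tested.

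KO against WT under DOX also called 0 of the 10, where edgeR called 0.42% of all genes. Pde4a was higher in KO DOX, by 0.56 (SE 0.154, interval 0.22 to 0.89, p 0.00345), from 58.0 ± 15.2 to 85.2 ± 4.50 CPM (SD, n = 3 each), and missed the adjusted threshold at 0.131. Pde8a was 0.22 higher (adjusted p 0.568), and like Pde4a had no overlap; 9.86% of all genes were higher in KO without overlap. Pde4a passed in DESeq2, in limma-voom and, at 0.72, without WT DOX mouse 21 (adjusted p 0.0229). Those fits called 473 of 14734, 990 of 14757 and 727 of 15033 genes, against 62 in the main fit. Without WT DOX mouse 24, its lowest library, Pde4a was 0.36 higher (adjusted p 0.198). Pde4d, at -0.06 (interval -0.40 to 0.29), and Pde1c, at 0.15, were near WT values under DOX. The interval lay within -1 and 1 for 9 of the 10, all but Pde2a. Under DOX all 4 neutrophil markers were lower in KO in the fitted value, and 2 were called. The interaction called 3 of those 4, all lower. Their part in the members' values was not tested.

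Averaged over both treatments, 0 of the 10 were called between genotypes (4.59% of all genes were), with Pde1c at 0.33 (adjusted p 0.0762), Pde8a at 0.37 (0.0889), Pde4a at 0.33 (0.0984) and Pde4d at 0.29 (0.149). These 4 had an unadjusted p under 0.05. DESeq2 called 2, Pde1c and Pde8a, and limma-voom 4. With 1 library left out, Pde4d (0.38, adjusted p 0.0339) and Pde8a (0.48, 0.0110) passed without WT vehicle mouse 1, Pde4a (0.41, 0.0377) without WT DOX mouse 21 and Pde1c (0.40, 0.0441) without WT DOX mouse 24. Averaged over both genotypes, DOX raised 1 of the 10, again Pde4d, by 0.51 (SE 0.114, interval 0.26 to 0.76, adjusted p 0.0381), where 5.17% of all genes passed. The combined DOX and vehicle libraries of Pde4d overlapped, and the call was lost without any 1 of 10 libraries; leaving out WT vehicle mouse 1 kept it, as did leaving out WT DOX mouse 21. Without KO DOX mouse 18 and KO vehicle mouse veh_3394 together, Pde4d was at 0.47 (adjusted p 0.123) in this average and at 0.85 (adjusted p 0.0256) for DOX in WT.

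The higher values of Pde1a and Pde3b in KO libraries went with the libraries high in atrial markers. Over the 12 libraries, Pde1a had a Pearson r of 0.77 with the summed atrial markers and of 0.83 with Pde3b, in log2 CPM, and both values lean on KO DOX mouse 18 and KO vehicle mouse veh_3394. Under vehicle, KO less WT was 0.38 for Pde1a (adjusted p 0.348) and 0.57 for Pde3b (0.259) with all libraries. Without those libraries it was 0.13 (adjusted p 0.729) and 0.21 (0.666). Under DOX the differences were 0.16 and 0.17 with them and -0.15 and -0.14 without them. Both libraries are labelled KO and were the highest of all for both genes. Leaving them out therefore had to lower KO less WT whatever their atrial content, and the change is only a description. The same libraries also had the highest summed adipocyte markers, at 22 CPM in KO vehicle mouse veh_3394 and 66.7 CPM in KO DOX mouse 18 against 0.089 to 19.3 CPM in the other 10. Their summed fibroblast markers were at 892 and 1180 CPM, against 602 to 924 CPM in the others. Pearson r with the adipocyte and fibroblast markers was 0.46 and 0.62 for Pde1a and 0.33 and 0.45 for Pde3b. The part of these tissues in the values was not tested.

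**Figure D4:**
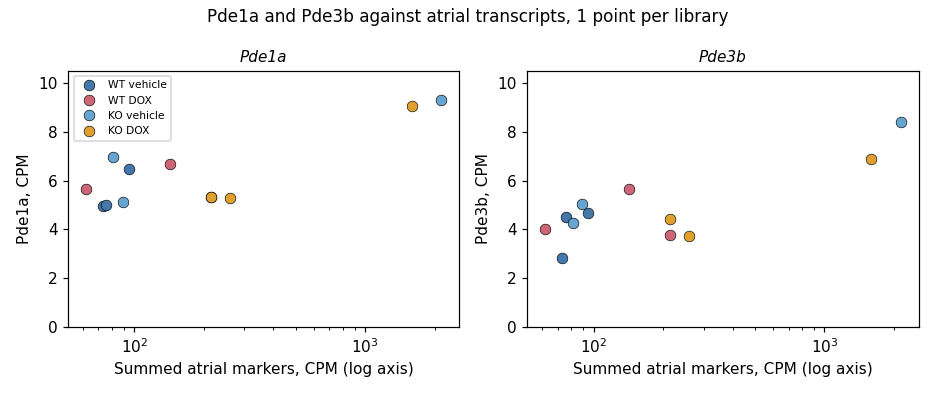
CPM of Pde1a and of Pde3b against summed CPM of 4 atrial markers on a log axis, 1 point a library. KO DOX mouse 18 and KO vehicle mouse veh_3394 stand apart on both axes, at 1590 and 2140 CPM of atrial markers.

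The 10 catalytic phosphodiesterases outside the list were Pde1b, Pde4c, Pde6a, Pde6b, Pde6c, Pde7a, Pde7b, Pde8b, Pde9a and Pde11a. Of these, 7 were tested, and Pde6a, Pde6b and Pde6c, the photoreceptor enzymes, had at most 4, 2 and 0 counts in any library. DOX in WT called 0 of 7, where 18.6% of all genes passed. KO under vehicle called 1 of 7, where 2.88% of all genes passed. The gene called was Pde7b (chr10:20398004-20725078, minus strand), a cAMP-specific enzyme. It was at 13.6, 8.91 and 9.28 CPM in WT vehicle, 13.6, 15.9 and 11.9 in WT DOX, 19.2, 17.9 and 21.6 in KO vehicle and 20.5, 12.6 and 16.1 in KO DOX. All KO vehicle libraries lay above all WT vehicle libraries for Pde7b, as for 16.5% of all genes, and the DOX groups overlapped. The difference was 0.89 under vehicle (SE 0.20, interval 0.45 to 1.32, adjusted p 0.0406), 0.25 under DOX (adjusted p 0.577) and 0.57 averaged (SE 0.141, adjusted p 0.0429). In that average 4.59% of all genes passed.

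The call of Pde7b under vehicle was lost without WT vehicle mouse 2 (adjusted p 0.127) or 3 (0.137), any KO vehicle mouse (0.0961 to 0.149) or KO DOX mouse 20 (0.0674), with values of 0.77 to 0.95. Pde8b, the other PDE8 gene, was at 5.08, 3.66 and 3.81 CPM in WT vehicle and 3.16, 2.53 and 1.83 in KO vehicle. Its KO libraries all lay under the WT libraries under vehicle, by -0.73 (SE 0.251), with an adjusted p of 0.0992. Of all genes, 14.8% were lower in KO under vehicle without overlap. Pde11a, which hydrolyses both nucleotides, was at 1.38, 0.484 and 0.476 CPM in WT vehicle and 1.55, 5.53 and 1.41 in WT DOX, a difference of 1.87 (SE 0.621, adjusted p 0.0538) that was 0.94 (adjusted p 0.276) without mouse 22. Pde7a was at 42.7 to 75.6 CPM over the 12 libraries, Pde4c at 9.45 to 18.4, Pde9a at 1.81 to 4.60 and Pde1b at 1.46 to 2.76, with 0 calls. Scaled per kilobase of annotated exon, Pde7a was at 8.16 CPM per kb in WT vehicle, between Pde4a (9.83) and Pde3a (6.76). In WT DOX Pde7a was at 8.74 CPM per kb, beside 8.54 for Pde3a and 7.58 for Pde4a. Pde4c was at 2.58 CPM per kb in WT vehicle.

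**Figure D5:**
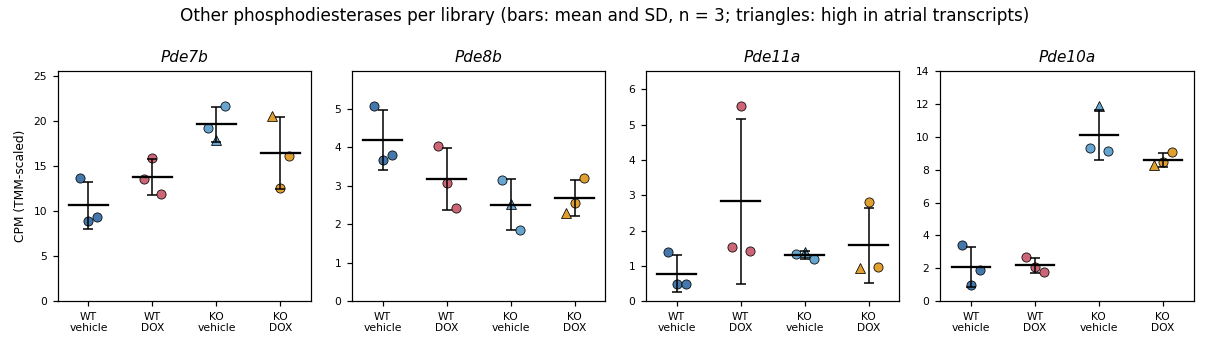
CPM of Pde7b, Pde8b, Pde11a and Pde10a in every library, by group, with axes from 0. Bars are the mean and SD of 3 libraries. The other tested phosphodiesterases outside the list are not drawn. Pde10a lies higher in each library labelled KO than in each WT library, and Pde7b is higher in KO vehicle than in WT vehicle libraries.

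The rest of the pathway was read from 6 lists of cyclic nucleotide genes, 56 symbols of which 50 were tested. DOX in WT raised 12 and lowered 7 of the 50, by edgeR's test, where 18.6% of all genes passed. Of 8 adenylyl cyclases, which make cAMP, 2 rose and 1 fell: Adcy9 by 1.76 (adjusted p 0.0128), Adcy5 by 0.33 (0.0474) and Adcy4 by -0.64 (0.0101). Of 5 guanylyl cyclases, 0 rose and 1 fell, the natriuretic peptide receptor Npr1 (-0.35, adjusted p 0.0424). Of 9 subunits and inhibitors of protein kinase A, 2 rose, both regulatory subunits, Prkar1a (0.47, adjusted p 0.0168) and Prkar2a (0.42, 0.0358).

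Of 9 other effectors of cAMP and cGMP, DOX in WT raised the cAMP-binding protein Popdc2 (0.40, adjusted p 0.0174) and the cGMP-dependent kinase gene Prkg1 (0.67, 0.0332) and lowered the pacemaker channel gene Hcn2 (-0.56, 0.0235). Of 11 anchoring proteins, which hold kinase and phosphodiesterases at a site, 6 rose and 1 fell, among them Akap7 (0.43, adjusted p 0.0165), Akap11 (0.62, 0.0191) and Akap1 (0.48, 0.0240). The 1 that fell was Akap5 (-1.70, adjusted p 0.0281), named after its value was seen. Of 8 cardiac substrates of protein kinase A, 0 rose and 3 fell: cardiac troponin I (Tnni3, -0.89, adjusted p 0.0168), phospholemman (Fxyd1, -0.60, 0.0232) and the phosphatase inhibitor Ppp1r1a (-1.07, 0.0332). Of these 19 calls, 0 held whichever library was left out; 0 held without WT DOX mouse 22 and 1 (Adcy4) without mouse 24.

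Pde4dip, a myomegalin that binds PDE4D at the centrosome and Golgi and is named here after its value was seen, was among the anchoring proteins that rose after DOX in WT (0.71, adjusted p 0.0266). It was at 1547, 906 and 1295 CPM in WT vehicle and 1709, 2368 and 2037 in WT DOX, without overlap. Its KO libraries were at 1949, 1979 and 1964 CPM under vehicle and 1807, 2437 and 2020.3 under DOX, so the WT vehicle libraries were the 3 lowest. Among all genes, 16.8% were higher without overlap after DOX in WT and 16.5% in KO under vehicle.

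KO under vehicle raised 4 and lowered 1 of the same 50 pathway genes, where 2.88% of all genes passed. Adcy4 was lower, by -0.67 (adjusted p 0.0146), with 39.6 to 40.6 CPM in WT vehicle and 24.7 to 26.0 in KO vehicle, while Adcy9 was 1.52 higher (0.0356) and Adcy5 0.47 higher (0.0366). Adcy9 was at 2.52 to 9.62 CPM in WT vehicle and 14.2 to 18.7 in KO vehicle. The ryanodine receptor gene Ryr2, a substrate of the kinase, rose by 0.88 (adjusted p 0.0217), and Prkar2a rose by 0.53 (0.0432). None of the 5 held whichever library was left out; each was lost without any 1 of WT vehicle mouse 3 and the KO vehicle mice.

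DOX in KO, KO under DOX and the interaction called 0 of the 50 by edgeR, with 5, 9 and 13 at an unadjusted p under 0.05. Averaged over treatments, the genotypes differed at 5 of the 50, 3 higher and 2 lower in KO (4.59% of all genes passed), and averaged over genotypes DOX raised 6 and lowered 1 (5.17% of all genes passed). In the first average the 5 were Adcy4, Adcy5, Bves, Hspb6 and Ryr2. Of them the effector Bves, a cAMP-binding relative of Popdc2, was 0.26 higher in KO (adjusted p 0.0353). The Bves call was lost without TMM, without the filter and with a term for the title suffix. It was also lost without any 1 of 8 libraries and without the libraries high in atrial transcripts. In the second the regulatory subunit Prkar1a was 0.46 higher after DOX (adjusted p 0.0159), from 398 ± 39.4 to 552 ± 14.2 CPM in WT and from 363 ± 21.7 to 492 ± 40.7 in KO (SD, n = 3 each). That call was lost without WT vehicle mouse 3, without KO vehicle mouse veh_3395, with a term for the title suffix and without the libraries high in atrial transcripts. Of the 5 calls between genotypes and the 7 calls for DOX in these averages, 0 held whichever library was left out.

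Of the 11493 tested genes whose mean log2 CPM reached 1, those whose log2 CPM followed Pde4d most closely over the 12 libraries were Glg1 (Pearson r 0.97, Spearman rho 0.958), Tor1aip2 (0.964 and 0.909) and Dapk1 (0.963 and 0.860). Glg1 encodes a Golgi membrane glycoprotein, Tor1aip2 a membrane partner of torsin ATPases and Dapk1 a calmodulin-dependent death-associated kinase. The values share libraries and group differences and were the highest of many, so they are a description.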

How the data were processed

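Mouse heart RNA was sequenced in 12 stranded mRNA libraries, per the labels' protocols. The authors deposited 1 table of read counts per library, by gene symbol and in whole numbers, made with fastp 0.20.0, STAR 2.7.0f and Subread 1.6.4 (featureCounts), per the submitters' processing notes. The build, annotation, strand setting and handling of reads that match several genes were not given in the sources used here. Groups and library numbers came from the titles. The word mouse before a number names a library, since the titles do not say that each library is 1 animal.

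Genes were filtered with filterByExpr by group, scaled with TMM and fitted with 1 mean per group over all 12 libraries in edgeR 4.0.16 (R 4.3.3). Quasi-likelihood F tests were adjusted by Benjamini-Hochberg over 14757 genes, with a threshold of 0.05. CPM used TMM-scaled library totals. Intervals are 95%. Positions and exon lengths came from GENCODE M21 on GRCm38, matched by symbol, and promoter windows from RefSeq (GRCm38.p6). The biological coefficient of variation was 17.5%. The fit was tested on simulated counts.

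Alternatives were DESeq2's size factors, no TMM, no filter, DESeq2 1.42.0, limma-voom with quality weights (limma 3.58.1), the title suffix as a further term, the 2 groups compared alone, each library left out, and transcript length. The title suffix follows the first number of some titles, and its meaning is not given. All KO DOX titles carry it and only some titles of each other group do. That term is therefore partly confounded with the groups. Leaving out the libraries high in atrial transcripts was chosen after seeing the data. The members and lists were chosen with earlier results of these data known. The genes named were all members, the other tested phosphodiesterases, up to 3 called genes per list and comparison with the smallest p, and the 3 genes most like a called member. Cell type markers were fixed lists.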

Additional observations from a re-analysis of the deposited data

How the results depend on the processing

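The number of members called depended on the tool. DOX in WT called 1 of 10, and 2 without TMM scaling, 3 without the filter, 2 with DESeq2, 4 with limma-voom and 0 with the WT groups alone. KO under vehicle called 0, and 3 without the filter, 3 with DESeq2 and 4 with limma-voom. KO under DOX called 0, and 1 without the filter, with DESeq2 and with limma-voom. The interaction called 0, and 1 without the filter and 2 with limma-voom. The genotype average called 0, and 3 without the filter, 2 with DESeq2 and 4 with limma-voom. The DOX average called 1, and 2 without the filter, 3 with limma-voom, 0 with a term for the title suffix and 0 without the libraries high in atrial transcripts.

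Counts over all genes moved as well. DOX in WT called 2743, and 5575 with limma-voom, 1595 with the suffix and 20 with 2 groups. DOX in KO called 2, and 0 without TMM, 309 without the filter, 66 with DESeq2, 88 with limma-voom, 0 with the suffix, 0 with 2 groups and 1 without the atrial libraries. KO under vehicle called 425, and 2088 without the filter, 1682 with DESeq2, 5186 with limma-voom, 211 with the suffix, 222 with 2 groups and 68 without the atrial libraries. KO under DOX called 62, and 1152, 473 and 990 without the filter, with DESeq2 and with limma-voom, 5 with 2 groups and 24 without the atrial libraries. The interaction called 31, and 51 without TMM, 1093 without the filter, 373 with DESeq2, 2048 with limma-voom and 2 without the atrial libraries. The genotype average called 677, and 1925, 1504 and 3411 with those 3 changes, 255 with the suffix and 98 without the atrial libraries. The DOX average called 763, and 2396, 2033 and 4226, then 37 and 16. It had 380 higher and 383 lower, against 851 and 254 without TMM.

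With 1 library left out, DOX in WT called 0 to 3 members and 183 to 4188 genes, DOX in KO 0 and 0 to 4, KO under vehicle 0 to 3 and 42 to 2670, KO under DOX 0 to 1 and 8 to 727, the interaction 0 and 0 to 515, the genotype average 0 to 2 and 111 to 1976, and the DOX average 0 to 1 and 27 to 2707. Apart from the smaller fits, the cause was not tested. No called value changed sign. The call of Pde10a under DOX (1.98, adjusted p 0.0243) was lost without any 1 of WT DOX mice 22 and 24, KO vehicle mouse veh_3393 and KO DOX mice 19 and 20. Pde2a had 2 to 18 counts a library, with the widest intervals of the members, and the cause of its low count was not tested. No paired analysis was possible because the groups share no replicate numbers.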
